A study of Homo sapiens with 20 samples.

Results

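The clustered protocadherins are 53 protein-coding genes in 3 neighbouring groups on the long arm of chromosome 5, and they were examined here out of 20136 annotated protein-coding genes. They were chosen by name and position: 15 PCDHA genes in the alpha cluster (chr5:140165721-140391932, hg19), 16 PCDHB genes in the beta cluster (chr5:140430959-140628933) and 22 PCDHG genes in the gamma cluster (chr5:140710081-140892544). For each member, peaks within 1 kb of its own most upstream annotated start were read from 16 ChIP-seq peak lists, and all peaks over the 3 clusters plus 50 kb on each side were collected. The antibodies were against CTCF, SMC1A, STAG1 and STAG2, each with 2 WT and 2 STAG2-KD libraries. All libraries are from M14, an established human melanoma line, and per the labels and the study's methods they are from cells stably carrying a doxycycline-inducible shRNA against STAG2. WT cells had no doxycycline and STAG2-KD cells had it for 5 days. For STAG2-KD of replicate 2 the labels give no time, and the 5 days come from the study's methods alone. The model is thus a knockdown of 1 gene by shRNA in 1 line of non-neuronal cells. Nothing in the labels says that the 2 libraries of a group came from separate cultures, so that the spread between them may be technical.

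Clustered protocadherins are cell-surface adhesion proteins known above all from neurons, where each cell uses a few of the many isoforms. In the alpha and gamma clusters each member has its own promoter and its own large variable exon, which is spliced to constant exons shared by the whole cluster, while each beta member is a gene of a single coding exon. Most of these promoters carry a conserved sequence element with a CGCT box that CTCF can bind, alpha variable exons hold a further CTCF site downstream, and enhancers lie outside the promoter arrays. CTCF binds DNA directly and often halts cohesin, a ring-shaped complex behind chromatin loops. Cohesin contains SMC1A together with either STAG1 or STAG2.

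The DNA around most members' starts shared a short element, which at some members lay under the CTCF summit. The letters GNCGCT, the box with the 2 bases before it, were searched for on both strands, and are in capitals in the windows of 29 bases that follow. The windows are the element nearest to the CTCF summit, or to the start where the summit was in the exon, for the 3 members of each cluster with the strongest CTCF peaks and for PCDHGA4, PCDHGA5 and PCDHGC3, whose results are described below. All are on the plus strand of chromosome 5, the strand of the genes. At PCDHA4 and PCDHA8 the CTCF summit was 668 and 637 bp downstream of the element.
PCDHA4: agccacatgatGTCGCTctttaccacaaa at chr5:140186567-140186595
PCDHA5: atccacatgatGTCGCTggacaccggaag at chr5:140201130-140201158
PCDHA8: agccacatgatGTCGCTgtctaccaagaa at chr5:140220718-140220746
PCDHB5: ggacgcctggtGGCGCTgcaggctaagag at chr5:140514764-140514792
PCDHB7: aaacgcaaggtGGCGCTgctggctaaaaa at chr5:140552150-140552178
PCDHB10: ggccacacggtGGCGCTgcaggctaaaga at chr5:140571875-140571903
PCDHGB1: aacctctgggcGCCGCTgtcgaccaaaag at chr5:140729595-140729623
PCDHGA4: agactctgggtGTCGCTgttcaccaatca at chr5:140734530-140734558
PCDHGA5: ggactctgagtGTCGCTgttgaccaaagt at chr5:140743677-140743705
PCDHGB4: tgactctgggcGCCGCTgttggccaaagt at chr5:140767187-140767215
PCDHGA12: ggactctgagcGCCGCTgttcaccaatcg at chr5:140810096-140810124
PCDHGC3: ggactctgtgtGCCGCTgtcggccaatga at chr5:140855450-140855478

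The bases before the box differed by cluster. The most frequent word of 3 bases plus the box was GATGTCGCT in alpha, held by 10 of 15 members between 250 bases before and 50 after the start, GGTGGCGCT in beta, held by 14 of 16 members, and GGCGCCGCT in gamma, held by 6 of 22 members. On the same strand and over the same window, these words were found at 0.109%, 0.402% and 0.700% of all protein-coding starts. No word of one cluster was found in another. The words were picked from these sequences, so the counts are a description. GNCGCT itself was on the gene strand at 47 of 53 members (12 alpha, 15 beta, 20 gamma) and at 31.7% of all starts, and on the other strand at 14 members and at 31.0% of all starts. The 6 members without it in this window were PCDHA9, PCDHA11, PCDHAC2, PCDHB6, PCDHGB7 and PCDHGC5.

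The other sequence searched for was the CTCF core motif, the 11-base centre of the usual CTCF site. It was matched on both strands within 50 bp of a CTCF summit, and it is in capitals below for the exonic peaks of the same 3 alpha members and of PCDHAC1, with the strand that reads along the genes. The match of PCDHA4 is exact, and those of PCDHA5, PCDHA8 and PCDHAC1 have 1 mismatch. The core and GNCGCT can overlap: GNCGCT runs over the end of the core in the PCDHAC1 window and in the DIAPH1 intron window further below.
PCDHA4: tctcggtttCCACTAGAGGGcgcctcgga at chr5:140187220-140187248
PCDHA5: tcgcggtttCCGCTAGAGGGcgcgtcgga at chr5:140201805-140201833
PCDHA8: tctcggtttCCGCTAGAGGGcgcgtccga at chr5:140221354-140221382
PCDHAC1: gtctctgcaCCCCTAGGCGGcgctgcgct at chr5:140306188-140306216

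At the 5 sites away from starts with the highest SMC1A strength, the exact matches were on the minus strand, against the direction of the protocadherin genes. They are a pair between the alpha and beta clusters, 1 at the end of the gamma cluster and 1 beyond it in an intron of DIAPH1. The remaining 2 sites had no exact match. With 1 mismatch allowed, the site between alpha and beta also had a plus-strand match. The site at chr5:140935590-140938518 then had matches on both strands, and that at chr5:140939942-140941264 had none. The exact matches follow.
between alpha and beta: gatctttaaCCAGCAGAGGGcgagtcgac at chr5:140419940-140419968
between alpha and beta: cctcatctgCCACCAGGTGGcaggtggat at chr5:140420949-140420977
end of gamma: aggctatggCCACTAGGGGGcgcactggg at chr5:140892062-140892090
DIAPH1 intron: gatgctcagCCAGCAGGTGGcgctgggag at chr5:140904453-140904481

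The lists held 58521 to 91582 peaks in replicate 1 and 98453 to 150308 in replicate 2. Of these, 40 to 75 lay over the clusters and their flanks. The replicates differ in chromatin extraction, size selection and peak threshold: every peak of replicate 1 had a −log10 q-value of at least 2.00, while the lists of replicate 2 were limited by p-value and reached down to a −log10 q-value of 0.311. Strength is therefore given as a percentile, the rank of a peak by −log10 p-value in its own list, where 100 is the strongest peak. A percentile still depends on the length of its list: with more weak peaks listed, the same peak ranks higher. The lists give no read totals, so the depth behind a value is not stated here. The whole STAG2 lists, the only trace of the knockdown here, held 79115 (WT) and 58521 (STAG2-KD) peaks in replicate 1, and 119021 and 106203 in replicate 2. No expression values were used, so the cell type could not be checked against its markers.

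The clusters were dense in peaks. CTCF peaks numbered 6.63 to 8.40 per 100 kb in the alpha cluster over the 4 lists, 8.59 to 9.09 in beta and 14.2 to 14.8 in gamma, against 2.79 to 3.95 over the genome. The starts of neighbouring members are close together, with a median spacing of 6.97 kb in alpha, 9.09 kb in beta and 4.97 kb in gamma, and the peaks followed them. Merged over the 16 lists, the peaks formed 72 sites, of which 49 lay within 1 kb of a member's start and 23 away from any. Of the 22 sites found in all 16 lists, 16 were at starts.

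**Figure D1:**
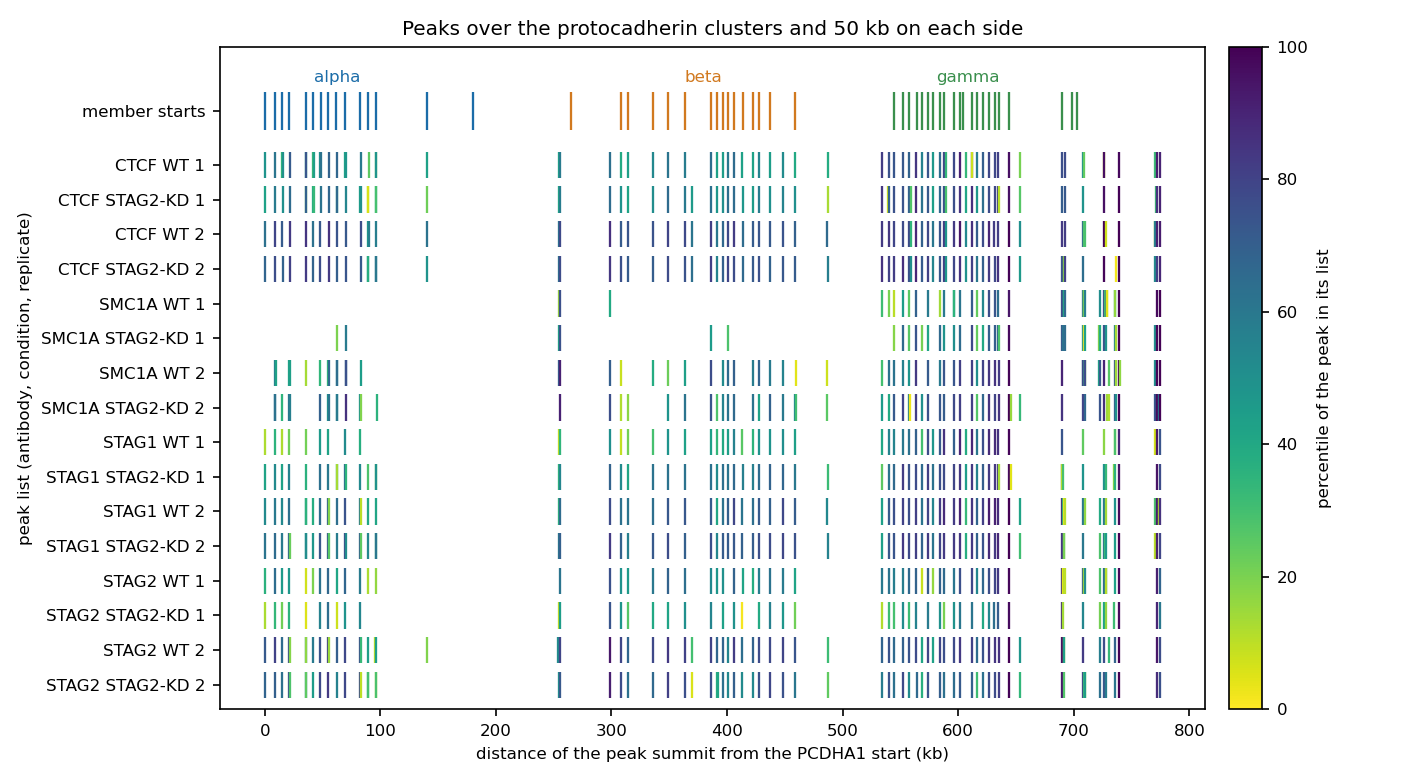
Peaks of the 16 lists over the protocadherin clusters. The horizontal axis is the distance of the summit from the PCDHA1 start in kb, each row is a list, each tick a peak, and the colour is its percentile in its list; the top row marks the 53 member starts. The SMC1A rows of replicate 1 are almost empty over alpha and beta and filled over gamma and beyond it, while the CTCF rows are filled over all 3 clusters.

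CTCF was present at nearly every start. In both WT lists, 48 of 53 members had a CTCF peak (14 of 15 alpha, 15 of 16 beta and 19 of 22 gamma), against 43.6% of all protein-coding genes, and the same 48 members had one in both STAG2-KD lists. STAG1 peaks were present in both WT lists at 43 members (9 alpha, 15 beta, 19 gamma), against 31.9% of all genes. STAG2 peaks were present at 46 (13 alpha, 14 beta, 19 gamma), against 44.6%. SMC1A differed: it was present in both WT lists at 17 members, all in gamma, against 50.8% of all genes. Replicate 1 decided that number, since the WT list of replicate 2 alone had SMC1A at 36 members. These are counts over neighbouring genes in one region and not independent trials.

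The 5 members without any peak in any list were PCDHAC2, PCDHB1, PCDHGA8, PCDHGC4 and PCDHGC5. PCDHAC2, PCDHGC4 and PCDHGC5 are C-type members, which sit at the end of their clusters and are used by most neurons rather than by choice, and PCDHB1 stands apart upstream of the other beta genes. Of the other C-type members, PCDHAC1 had CTCF peaks at percentiles 42.8 (WT) and 22.04 (STAG2-KD) in replicate 1 and 61.9 and 48.5 in replicate 2, and of the cohesin subunits only a STAG2 peak in 1 WT list, at 19.0. PCDHGC3 had peaks in all 16 lists, with STAG2 at 88.2 and 96.0 in WT and 87.0 and 93.6 in STAG2-KD. PCDHGA8 is without a peak by its most upstream annotated start. A site more than 1 kb downstream of that start (chr5:140771827-140772539), in an annotated UTR of PCDHGA8, had CTCF in all 4 lists at 33.5 to 53.5 and STAG1 in all 4 at 33.1 to 44.2. No STAG2 or SMC1A peak was listed there.

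Gamma members had the highest median percentile in every list of the 4 antibodies. Over the 4 CTCF lists, the median percentile of members with a peak was 74.9 to 82.0 in gamma, 52.4 to 72.5 in alpha and 44.9 to 73.4 in beta. For STAG1, the median was 73.7 to 82.5 in gamma, 35.9 to 61.6 in alpha and 43.3 to 71.2 in beta. For STAG2 it was 54.5 to 77.7 in gamma, 34.8 to 71.2 in alpha and 42.5 to 77.2 in beta. For SMC1A it was 59.1 to 79.9 in gamma, 56.4 to 60.7 in alpha and 36.9 to 55.3 in beta, where a list had any peak. The gamma range overlapped those of both other clusters for STAG2, that of alpha for SMC1A, and neither for CTCF or STAG1. Every cluster had higher median percentiles in replicate 2 than in replicate 1, whose lists are shorter. By median fold enrichment, gamma was not the highest for STAG2 in STAG2-KD of replicate 2, with 7.49, against 7.73 in alpha and 7.85 in beta.

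**Figure D2:**
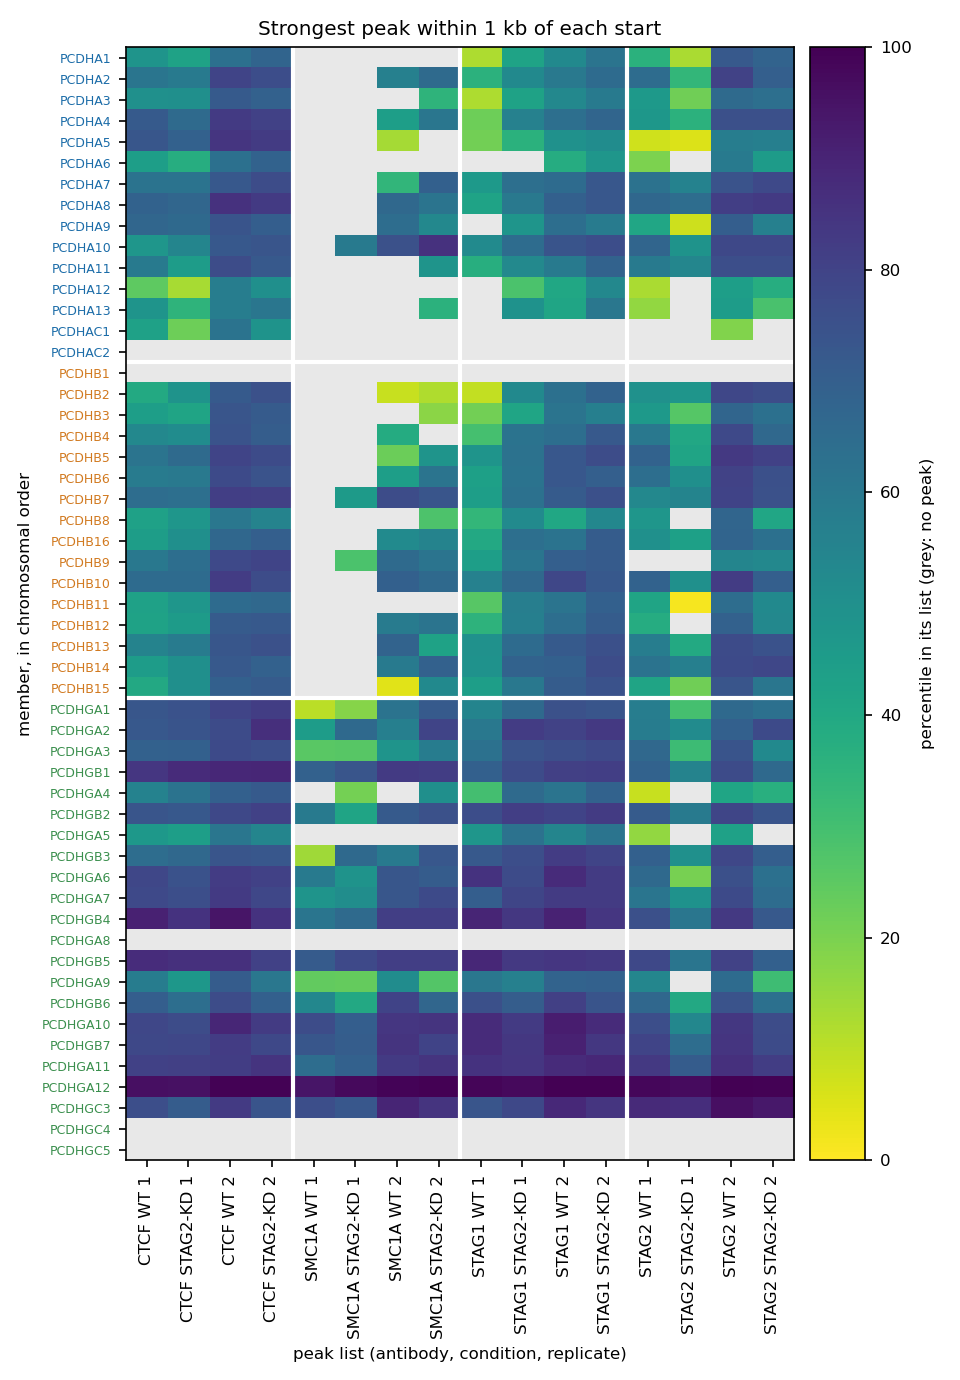
Percentile of the strongest peak within 1 kb of the start, for 53 members (rows, in chromosomal order, names coloured by cluster) in 16 lists (columns). Grey marks no peak: 5 rows are grey throughout, and the SMC1A columns of replicate 1 are grey for alpha and beta members except 1 alpha and 2 beta members in STAG2-KD. PCDHGA12 is the darkest row, at 94.3 to 99.9.

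Peaks of all 4 antibodies in all 16 lists were found at 16 members, all of them gamma: PCDHGA1, PCDHGA2, PCDHGA3, PCDHGA6, PCDHGA7, PCDHGA10, PCDHGA11, PCDHGA12, PCDHGB1 to PCDHGB7 and PCDHGC3. PCDHGA12, the last of the ordinary gamma promoters, had the highest mean CTCF percentile of all members, 97.5. Its CTCF peak was at percentile 95.8 (WT) and 95.4 (STAG2-KD) in replicate 1 and 99.5 and 99.2 in replicate 2. Its SMC1A peak was at 94.3 and 97.6 in replicate 1 and 99.2 and 99.7 in replicate 2. The fold enrichment of CTCF over background there was 97.9 and 81.9 in replicate 1 and 63.5 and 47.8 in replicate 2. PCDHGB4 and PCDHGB1 followed in gamma, with mean CTCF percentiles over the 4 lists of 89.0 and 87.5. The highest alpha members by this measure were PCDHA5 (77.3), PCDHA8 (76.0) and PCDHA4 (75.2), and the highest beta members PCDHB7 (72.6), PCDHB10 (72.3) and PCDHB5 (70.9), all below the strongest 3 of gamma.

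The members are close relatives, and reads can match more than 1 of them. Of all words of 50 bases within 1 kb of the start, a median of 95.1% in alpha, 100% in beta and nearly 100% in gamma occurred at 1 place in the genome. The lowest values were 61.3% at PCDHB8 and PCDHB13, 67.6% at PCDHA7 and 75.6% at PCDHGB4 and PCDHGB5. Next came 82.7% at PCDHB9 and PCDHB10, 87.6% at PCDHA8, 87.7% at PCDHA6 and 88.1% at PCDHGB6 and PCDHGB7. The strengths at all these members rest on fewer unique positions, whose part in the values was not tested.

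By presence of peaks at starts, SMC1A differed most between the clusters, above all in replicate 1. In WT of replicate 1, 0 of the 14 alpha members with a CTCF peak also had an SMC1A peak, 0 of the 15 beta members and 17 of the 19 gamma members. Over all protein-coding genes with a CTCF peak at the start, 84.1% had SMC1A in that pair of lists. The WT lists of replicate 2 had SMC1A with CTCF at 7 of 14 alpha members, 12 of 15 beta members and 17 of 19 gamma members, against 93.9% of all such genes. The strengths went the same way. The median −log10 q-value of SMC1A in WT of replicate 2 was 5.79 over the 7 alpha members, 5.66 over the 12 beta members and 23.9 over the 17 gamma members. Fold enrichment had medians of 4.17, 3.76 and 9.04. Higher strength in gamma was not particular to SMC1A: the median −log10 q-values of STAG1 in WT of replicate 2 were 17.2 in alpha, 37.9 in beta and 100 in gamma. At the same starts STAG1 accompanied CTCF in WT of replicate 1 at 9 of 14 alpha, 15 of 15 beta and 19 of 19 gamma members, against 61.8% of all genes with CTCF there. The absence of SMC1A peaks from alpha and beta starts in WT of replicate 1 thus stood beside STAG1 and STAG2 peaks at most of the same starts. At PCDHB10, for instance, replicate 1 listed no SMC1A peak in WT or STAG2-KD, and STAG1 peaks at 56.0 and 66.1. Whether the SMC1A antibody or the threshold of the lists played a part was not tested.

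In the alpha cluster CTCF and the STAG subunits peaked at different places. In WT of replicate 1, 13 of 15 alpha members had a CTCF summit more than 300 and up to 1500 bp downstream of the start, 12 of these inside the member's own coding exon, and 7 had a summit within 300 bp of the start. Over all protein-coding genes the shares were 20.5% downstream and 25.1% at the start. For STAG2 the numbers were 3 downstream and 10 at the start, and for STAG1 1 and 8. Where both a start and an exonic CTCF summit were listed, at 6 members, the exonic peak was the stronger at all 6. This did not recur in STAG2-KD of replicate 1, where it was the stronger at 1 of 4. In replicate 2 both were listed at 1 member in WT, with the exonic peak stronger, and at 2 in STAG2-KD, with the start peak stronger at both. The larger number of exonic summits did recur: 10 exonic against 5 at the start in WT of replicate 2 (26.5% and 31.2% of all genes), and in STAG2-KD 11 against 7 and 10 against 6 in replicates 1 and 2. PCDHA5 shows both: its CTCF summit near the start was 31 bp upstream at percentile 38.1 and its exonic summit 637 bp downstream at 73.4.

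The distance between the strongest summits puts a number on this. The strongest STAG2 summit lay a median of 629 bp upstream of the strongest CTCF summit over 13 alpha members in WT of replicate 1, written as −629, with 11 of 13 upstream by 400 bp or more. Over 14 beta members the median was 9 bp, and over 19 gamma members −5 bp, with 0 in either cluster upstream by 400 bp or more. For STAG1 in the same replicate the medians were −662 bp over 9 alpha members, 9 bp over 15 beta members and 4 bp over 19 gamma members. The alpha medians in WT of replicate 2 were −484.5 bp for STAG2 and −617 bp for STAG1, with 8 of 14 and 8 of 13 upstream by 400 bp or more. In STAG2-KD they were −641.5 and −530 bp for STAG2 in replicates 1 and 2. For STAG1 in STAG2-KD the median was −629.5 bp in replicate 1 and −2 bp in replicate 2, where 6 of 13 alpha members were still upstream by 400 bp or more. SMC1A in WT of replicate 2 was nearer to CTCF: its median offset over 7 alpha members was 0 bp, with 6 within 150 bp. In STAG2-KD of replicate 2 the median was −104 bp over 9 alpha members, with 4 within 150 bp. Only 1 summit is counted per peak here, and a broad peak can cover both places.

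**Figure D3:**
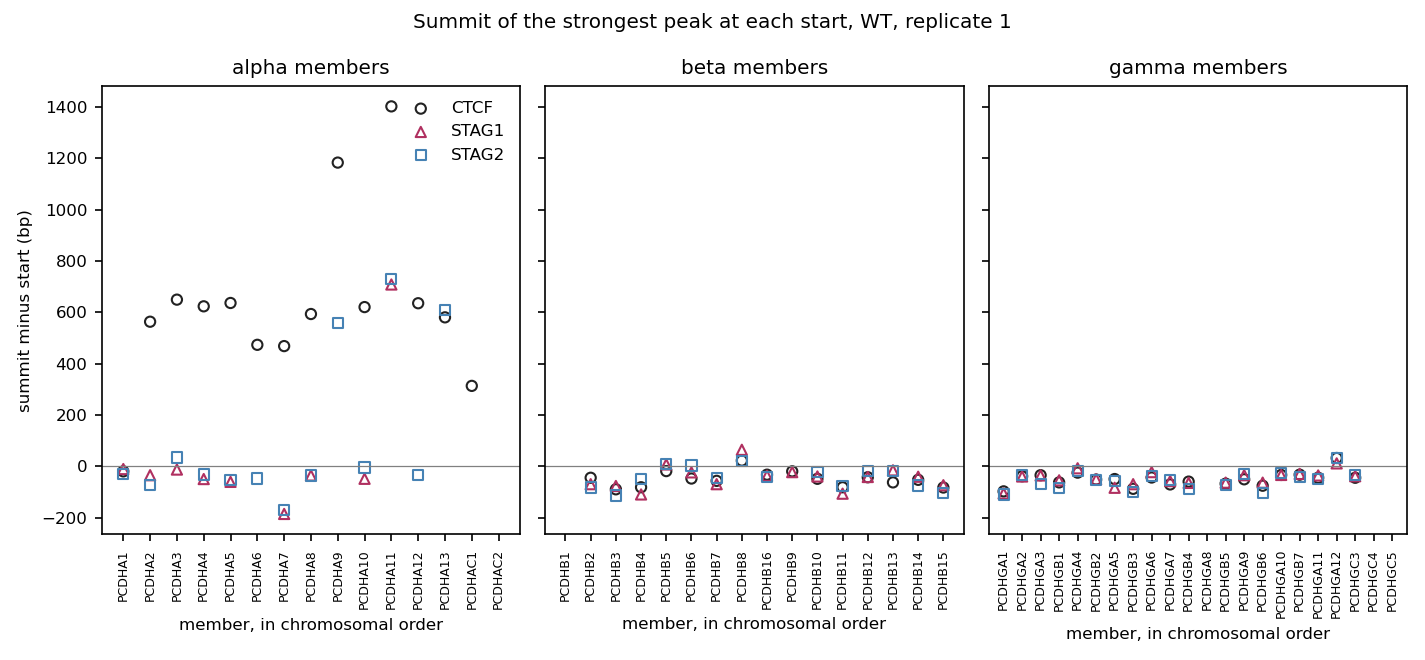
Position of the summit of the strongest peak at each start in WT of replicate 1, in bp relative to the start, for CTCF (circles), STAG1 (triangles) and STAG2 (squares), by cluster. In alpha most circles lie well downstream of the start and most triangles and squares close to it, while in beta and gamma the 3 symbols coincide just upstream of the start.

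PCDHA9 and PCDHA11 looked different in position but not in spacing. Their annotated starts lie further upstream, so that the STAG2 summit was 558 and 729 bp and the CTCF summit 1184 and 1403 bp downstream of the start in WT of replicate 1. The distances from STAG2 to CTCF were −626 and −674 bp, near the alpha median. PCDHA1 had its CTCF summit 19 bp upstream of its start and none in its exon in the same list.

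In the beta and gamma clusters the CTCF summit nearest to the start was just upstream of it. Its median position was −48 bp in beta and −49 bp in gamma in WT of replicate 1, with all 15 and all 19 members within 100 bp, against 25.1% of all genes with a CTCF peak there. The WT list of replicate 2 gave −67 and −77 bp, with 14 of 15 and 15 of 19 within 100 bp, against 23.7%. GNCGCT on the gene strand was within 25 bp of that summit at 10 of 14 alpha, 13 of 15 beta and 18 of 19 gamma members in WT of replicate 1, against 19.2% of all genes with a CTCF peak. The other strand had it at 0, 0 and 7 of these members, against 15.9%. Of the alpha matches on the gene strand, those of PCDHA9, PCDHA12 and PCDHAC1 were at summits 1184, 636 and 314 bp downstream of the start. PCDHA9 and PCDHA12 also had an exact core match there. The WT list of replicate 2, where the peaks of the lists are wider (median widths 406 to 593 bp, against 327 to 395 bp in replicate 1), gave lower counts of 2, 6 and 10, against 14.1% of all genes. For STAG2 in WT of replicate 1, the strongest summit had GNCGCT on the gene strand within 25 bp at 10 of 13 alpha, 9 of 14 beta and 16 of 19 gamma members. A match describes letters in the window and is not a measured binding site.

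The CTCF core motif was found at fewer members, and mostly in the alpha cluster. Within 50 bp of a CTCF summit it was matched exactly at 8 of 53 members over both WT lists, on the gene strand at 7 and on the other strand at 1. At 1 mismatch this became 14 members, with 13 on the gene strand and 3 on the other strand, where a member can count on both. In WT of replicate 1, exact matches were at 8 of 19 CTCF peaks in the alpha cluster (7 on the plus strand, 1 on the minus strand), 0 of 17 in beta and 2 of 27 in gamma. Over the genome 20.3% of the CTCF peaks of that list had one, 8767 on the plus strand alone and 8552 on the minus strand alone. The matches of the gamma cluster were 1 on the plus strand in the coding exon of PCDHGA6 and 1 on the minus strand at the end of the cluster. Of the peaks in WT of replicate 2, 4 of 15 alpha, 0 of 18 beta and 2 of 27 gamma peaks had an exact match, against 14.001% over the genome.

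Of the sites away from starts, the 5 with the highest SMC1A strength flank the promoter arrays. The first lies between the alpha and beta clusters (chr5:140419520-140421411), outside any annotated exon or intron at its strongest summit, and is listed by all 16 lists. Its SMC1A percentiles were 74.9 to 90.9, above the range of STAG1 (34.5 to 69.8) and overlapping those of CTCF (58.4 to 78.1) and STAG2 (44.9 to 79.4). Within each condition and replicate, SMC1A had the highest percentile of the 4 antibodies. The site holds the pair of exact minus-strand core matches shown above, and a plus-strand match with 1 mismatch. The second, at the end of the gamma cluster (chr5:140891353-140894459), lies at its summit in the UTR shared by the gamma genes and had CTCF at 95.7 to 99.5 and SMC1A at 73.6 to 90.04.

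The other 3 lie beyond the gamma cluster, the first 2 in introns of DIAPH1, a gene for an actin regulator, and the last in introns of 2 genes at its summit. The site at chr5:140903829-140905356 had the highest mean percentile of all 72 sites for SMC1A, STAG2 and CTCF, while for STAG1 the PCDHGA12 site was higher. It had SMC1A at 99.9 to 100, STAG2 at 97.6 to 100, CTCF at 97.9 to 100 and STAG1 at 90.2 to 99.9. The sites at chr5:140935590-140938518 and chr5:140939942-140941264 had SMC1A at 97.4 to 99.2 and at 99.4 to 100. No exact core match was within 50 bp of their CTCF summits. By contrast, 1 gamma site without CTCF in any list (chr5:140887073-140889465, in an intron) had SMC1A in all 4 lists at 38.2 to 73.9 and STAG2 in all 4 at 21.0 to 62.9.

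The number of peaks over the clusters was compared between STAG2-KD and WT, with a two-sided exact permutation test of the log2 number. Since each group has 2 libraries, no p below 0.333 was possible. For CTCF, WT and STAG2-KD had 74 and 75 peaks in replicate 1, and 72 and 71 in replicate 2. The log2 ratio averaged 0.00 ± 0.03 (SD, n = 2, exact permutation p = 1.0). STAG1 had 58 and 69 peaks, then 73 and 74, and its ratio averaged 0.14 ± 0.16 (SD, n = 2, exact permutation p = 0.667). STAG2 had 66 and 53, then 72 and 73, and averaged −0.15 ± 0.24 (SD, n = 2, exact permutation p = 1.0). SMC1A had 41 and 40, then 66 and 68, and averaged 0.00 ± 0.06 (SD, n = 2, exact permutation p = 1.0). None of the 4 differences exceeded the spread between replicates, and those of STAG2, CTCF and SMC1A had opposite signs in the 2 replicates.

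Strength at members' starts was lower for STAG2 and higher for STAG1 in STAG2-KD in both replicates. No p below 0.333 was possible here either, so the test could not call these differences. The permutation test does not pair libraries by replicate, while the SD is that of the 2 differences within replicates. Paired by replicate, the exact sign-flip p was 0.5 for STAG1 and for STAG2, the smallest that 2 pairs can give. The median STAG2 percentile over all 53 members, with absent peaks as 0, was 57.5 (WT) and 35.6 (STAG2-KD) in replicate 1, and 74.4 and 64.8 in replicate 2. The change was −15.8 ± 8.63 points (SD, n = 2, exact permutation p = 0.667), lower in both replicates, although WT of replicate 1 was below STAG2-KD of replicate 2. The median STAG1 percentile was 43.9 and 61.8 in replicate 1, and 68.1 and 71.2 in replicate 2, a change of 10.5 ± 10.4 points (SD, n = 2, exact permutation p = 0.667), higher in both, with the same overlap between replicates. List lengths, on which percentiles depend, differed too. In replicate 1 STAG1 had 63535 (WT) and 85621 (STAG2-KD) peaks, and STAG2 79115 and 58521. In replicate 2 STAG1 had 98453 and 104663, and STAG2 119021 and 106203. With every list cut to its strongest 58521 peaks, an alternative chosen after seeing the data, the changes were smaller, 3.57 points for STAG1 and −9.45 points for STAG2. The part of list length in the changes was not tested further. The CTCF medians were 59.3 and 59.5 in replicate 1 and 73.9 and 73.6 in replicate 2, a change of −0.03 ± 0.38 points (SD, n = 2, exact permutation p = 1.0). The SMC1A median was 0 in both lists of replicate 1, since most members had no peak, and 51.5 and 58.0 in replicate 2, a change of 3.25 ± 4.60 points (SD, n = 2, exact permutation p = 1.0).

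STAG1 values are given by cluster as a description, with no test between clusters. Among members with a STAG1 peak in all 4 lists, the percentile was higher in STAG2-KD at 9 of 9 alpha and 15 of 15 beta members in replicate 1, and at 9 of 9 and 12 of 15 in replicate 2. In gamma it was higher at 10 of 19 and 9 of 19. Over all protein-coding genes with such peaks it was higher at 86.7% in replicate 1 and 58.5% in replicate 2. The median changes in replicate 1 were 17.5 points in alpha, 18.8 in beta and 3.89 in gamma, beside 11.1 over all genes, and in replicate 2 they were 5.65, 4.30 and −0.18, beside 0.99. On the scale of log2 fold enrichment, STAG2-KD over WT, the medians were 0.61, 0.82 and −0.03 in replicate 1 and 0.28, 0.23 and −0.16 in replicate 2, beside 0.35 and 0.00 over all genes. Gamma members started from higher percentiles in WT, as given above, and the part of that in the difference was not tested.

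**Figure D4:**
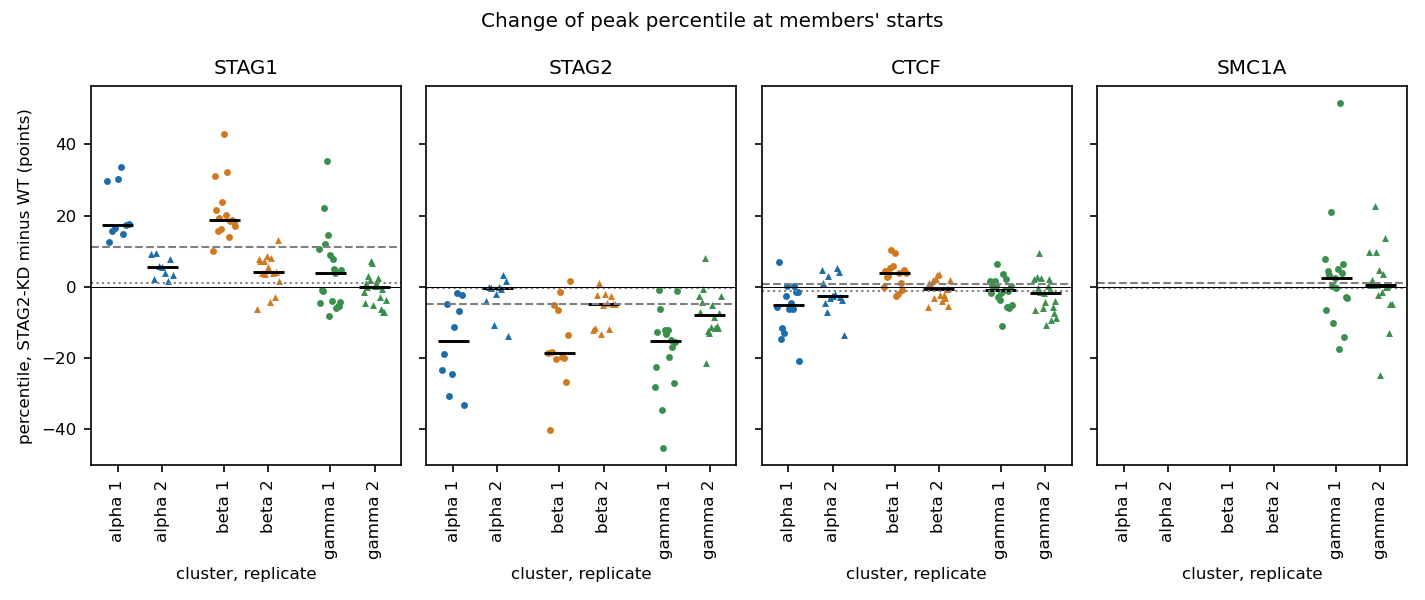
Change of the percentile of the strongest start peak, STAG2-KD minus WT in points, for members with a peak in all 4 lists of the antibody. Circles are replicate 1 and triangles replicate 2, black bars are medians, and grey lines are the medians over all protein-coding genes (dashed for replicate 1, dotted for replicate 2). STAG1 points lie above 0 for all alpha members in both replicates and on both sides of 0 for gamma, and STAG2 points lie below 0 for 37 of 38 members in replicate 1.

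Single members show the STAG1 values behind these counts. At PCDHA4 the STAG1 percentile was 22.2 (WT) and 56.0 (STAG2-KD) in replicate 1, and 63.6 and 67.5 in replicate 2. At PCDHA8 it was 42.0 and 59.5, and 69.4 and 72.7. At PCDHB5 it was 48.1 and 62.2, and 72.8 and 76.7. In each of these the STAG2-KD value was the higher in both replicates, though WT of replicate 2 was above STAG2-KD of replicate 1. At PCDHB10 the direction differed, with 56.0 and 66.1 in replicate 1 and 78.9 and 72.5 in replicate 2. At PCDHGB4 STAG1 was lower in STAG2-KD both times, with 89.7 and 83.8, and 90.5 and 84.3. At PCDHGA12 it was 98.5 and 97.4, and 99.9 and 99.8.

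STAG2 strength was lower in all 3 clusters in replicate 1. Among the 38 members with a STAG2 peak in all 4 lists, the percentile was higher in STAG2-KD at 1 in replicate 1 and at 6 in replicate 2, against 34.4% and 47.3% of all genes with such peaks. The median change was −15.1 points in alpha, −18.5 in beta and −15.1 in gamma in replicate 1, beside −4.89 over all genes. In replicate 2 it was −0.38, −4.73 and −7.90, beside −0.35. As log2 fold enrichment the gamma medians were −0.91 and −0.74, and that of alpha in replicate 2 was 0.03, opposite in sign to its percentile. At PCDHGB4 the STAG2 percentile was 75.6 (WT) and 60.7 (STAG2-KD) in replicate 1, and 83.5 and 71.9 in replicate 2. At PCDHA8 it was 66.7 and 64.3, and 81.3 and 82.9, so that its direction differed between replicates. Of the 37 members with both STAG subunits in all lists, 16 had STAG1 higher and STAG2 lower in both replicates by percentile (5 alpha, 7 beta, 4 gamma), against 26.0% of all genes with such peaks. By fold enrichment 9 of 37 did, against 15.4%. STAG1 was lower in both replicates by percentile at 7 of 37 members, all gamma, against 8.40%.

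For CTCF the median changes on the same measure were −5.16 points in alpha, 3.83 in beta and −0.99 in gamma in replicate 1, and −2.55, −0.72 and −1.60 in replicate 2. Among 48 members, the CTCF percentile was higher in STAG2-KD at 23 in replicate 1 and 18 in replicate 2, against 55.2% and 37.7% of all genes with such peaks. Beta members were higher at 12 of 15 in replicate 1 and at 7 of 15 in replicate 2. Members with an SMC1A peak in all 4 lists were all gamma. Among these SMC1A was higher at 10 of 17 in replicate 1 and 9 of 17 in replicate 2, close to the 55.0% and 46.3% of all genes with such peaks. Alpha and beta members were left out by this rule, although replicate 2 listed SMC1A at 7 (WT) and 9 (STAG2-KD) alpha and 12 and 13 beta members.

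Peaks that appeared or disappeared at starts were counted within a replicate. In replicate 1, 8 of the 46 members with a STAG2 peak in WT had none in STAG2-KD (PCDHA6, PCDHA12, PCDHA13, PCDHB8, PCDHB12, PCDHGA4, PCDHGA5 and PCDHGA9), a share close to the 15.9% of all protein-coding genes that lost one, and 0 of 7 gained one, against 9.08%. STAG1 was lost at 0 of 43 members, against 3.80%, and gained at 3 of 10 (PCDHA9, PCDHA12 and PCDHA13), against 21.0%. Replicate 2 gave fewer changes: STAG2 was lost at 2 of 48 members (PCDHAC1 and PCDHGA5), against 5.43%, and gained at 0 of 5, against 6.12%. STAG1 was lost there at 0 of 47, against 5.85%, and gained at 0 of 6, against 9.69%. SMC1A in replicate 1 was lost at 0 of 17, against 6.22%, and gained at 4 of 36 (PCDHA10, PCDHB7, PCDHB9 and PCDHGA4), against 13.7%. In replicate 2 SMC1A was lost at 2 of 36, against 3.25%, and gained at 6 of 17, against 8.70%. With so few members behind each count, single peaks near the threshold decide it.

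Counting any peak within 1 kb, 2 changes at starts recurred in both replicates: STAG2 lost at 1 of 46 members, against 0.857% of all genes, and SMC1A gained at 1 of 17, against 1.56%. PCDHGA5 had STAG2 peaks in WT at percentiles 16.1 and 43.0 and none in either STAG2-KD list. It had CTCF and STAG1 in all lists, with STAG1 at 47.5 (WT) and 62.1 (STAG2-KD) in replicate 1 and 54.7 and 61.5 in replicate 2, and no SMC1A peak in any list. PCDHGA4 had no SMC1A peak in either WT list and had one in both STAG2-KD lists, at 21.0 and 50.0. Its STAG1 percentile was 30.0 and 65.4 in replicate 1 and 61.5 and 68.7 in replicate 2.

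Over all sites of the clusters and flanks, few changed in both replicates. Losses are counted among sites in both WT lists, and gains among sites in both STAG2-KD lists. STAG2 sites in both WT lists were 66, of which 1 was absent in both STAG2-KD lists, the PCDHGA5 site, against 5.43% over the genome. None of 53 STAG2 sites was gained, against 0.875%. For STAG1, 0 of 58 were lost, against 1.65%, and 1 of 68 was gained, at PCDHA13 (chr5:140261582-140261716), against 6.78%. This peak, 50 bp upstream of the start, was at 19.1 and 33.7 in STAG2-KD. PCDHA13 is not among the starts changed in both replicates, because WT of replicate 2 had another STAG1 peak within 1 kb, 580 bp downstream of the start at 41.2. For CTCF, 1 of 73 was lost, 6.16 kb downstream of the PCDHGC5 start, against 3.30%, and 0 of 75 were gained, against 2.17%. For SMC1A, 0 of 41 were lost, against 3.90%, and 2 of 40 were gained, at PCDHGA4 and 18.9 kb downstream of the PCDHGC5 start, against 6.62%.

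Genes listed for comparison are set beside the 43.6% (CTCF) and 50.8% (SMC1A) of all protein-coding genes with a start peak in both WT lists, with no test. Of 12 non-clustered protocadherins, single genes elsewhere in the genome, CTCF was present in both WT lists at 3 (PCDH1, PCDH12 and PCDH17) and SMC1A at 5. Of 9 protein-coding genes named within or beside the clusters, CTCF was present at 5 and SMC1A at 6, among them TAF7, which lies between the beta and gamma clusters, and DIAPH1. Of 11 factors known to act on the clusters, CTCF was present at 9 and SMC1A at 8.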

How the data were processed

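ChIP-seq peaks of STAG1, STAG2, CTCF and SMC1A in M14 cells were read from 16 lists, 1 per library. Per the labels, libraries with the same replicate number share an extraction and size-selection protocol, so replicate numbers pair WT with STAG2-KD; no list was used for the 4 inputs. Per the study's methods, the authors aligned reads to hg19 with bowtie2, removed duplicates and called peaks with MACS2 against input, and the labels of replicate 2 name CASAVA 1.4, BWA, SAMtools, Picard and deepTools. The authors deposited for each peak its fold enrichment over local background (a ratio), its −log10 p-value and, in another column, its −log10 q-value. Strengths were compared between lists as ranks and, where stated, as fold enrichment, which was not adjusted between lists. Peak numbers were compared between lists as deposited. Replicate 1 lists stop at a −log10 q-value of 2.00 and replicate 2 lists at a −log10 p-value of 2.00, so list lengths differ between replicates.

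Only peaks on the autosomes and sex chromosomes entered. Starts are the most upstream transcript starts of GENCODE protein-coding genes on GRCh37, the build of the files, and sequences were read from that genome. A peak was at a start when it overlapped the 1 kb on either side, and the strongest by −log10 p-value was taken. Sites were shared when they overlapped by at least 1 bp. Lost and gained mean absent or present at the authors' thresholds, not differential binding. Groups were compared by two-sided exact permutation tests over libraries. Percent values of all genes or all sites are given as background and not as a test. The functions were tested on simulated peaks and planted motifs.

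The members, gene lists and named genes were chosen with earlier results of these data known. Named members were the C-type members and PCDHB1, the 3 with the highest mean CTCF percentile in each cluster, those with a peak in all 16 lists or no CTCF peak, those changed in both replicates, and the 5 sites away from starts with the highest SMC1A strength. Other members named, GNCGCT and its words were chosen after their values or sequences were seen. The comparison lists were non-clustered protocadherins, genes within or beside the clusters, and factors known to act on them. Python 3.11.15, numpy 2.4.6, pandas 2.3.3 and pysam 0.24.0 were used. Alternatives were windows of 500 bp and 2 kb, summits, all transcript starts, stricter q-values, equal list lengths, overlap of 50%, clusters without flanks, single replicates and a replicate block.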

Additional observations from a re-analysis of the deposited data

How the results depend on the processing

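Of the counts of members with a peak in both WT lists, only that of SMC1A moved by over 1.5 times: it was 17, and 36 without replicate 1, where the replicate 2 list stands alone. By single lists it ranged from 17 to 36. STAG1 ranged from 43 to 47, STAG2 from 46 to 48, and CTCF was 48 in either. Members with the CTCF core motif at a summit rose from 8 to 14 when 1 mismatch was allowed. The log2 ratios of peak numbers in single replicates ranged from 0.0196 to 0.251 for STAG1, from −0.316 to 0.0199 for STAG2, from −0.0202 to 0.0194 for CTCF and from −0.0356 to 0.0431 for SMC1A, so that the last 3 changed sign, and CTCF was 0.0102 without the flanks. With a −log10 q-value of at least 5 the SMC1A ratio was 0.226 (exact permutation p = 0.667), its furthest value under any alternative run. Changes of the median percentile ranged from 3.11 to 17.9 points for STAG1, from −21.9 to −9.69 for STAG2, from −0.30 to 0.23 for CTCF and from 0 to 6.498 for SMC1A. STAG1 stayed positive and STAG2 negative under each alternative run, while CTCF turned to 0.60 points with equal list lengths (0 for SMC1A) and to 0.0839 as log2 fold enrichment. In the fit with a replicate block, which pairs libraries of the same number, the mean changes were the same, 10.5 points for STAG1 and −15.8 for STAG2, with an exact sign-flip p of 0.5, the smallest that 2 pairs can give, and it changed no call.

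Counts of sites changed in both replicates are small and moved with the setting. With an overlap of 50% of the shorter interval, gained STAG1 sites were 4, lost STAG2 sites 2 and gained STAG2 sites 1. With a −log10 q-value of at least 5, lost STAG2 sites and lost CTCF sites were 0 and gained SMC1A sites 1. With equal list lengths, lost STAG1 sites were 1, gained STAG1 sites 2 and lost STAG2 sites 3. The causes were not tested. The lists give no read depth, so an absent peak may lie just under a threshold.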
